A study of Homo sapiens with 20 samples.

Results

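A set of 10 genes, for molecular chaperones that cells make without stress and for their heat shock partners, was followed through translation initiation complexes of HEK 293T cells, an established line derived from human embryonic kidney. The 10 genes were listed by name and Ensembl identifier, by a rule that holds no measured value but was written with earlier results of these data known, and make up 10 of the 19029 identifiers counted. They are HSPA8 (ENSG00000109971), DNAJB1 (ENSG00000132002), HSPH1 (ENSG00000120694), BAG3 (ENSG00000151929), HSP90AA1 (ENSG00000080824), HSP90AB1 (ENSG00000096384), HSPD1 (ENSG00000144381), HSPE1 (ENSG00000115541), HSPA9 (ENSG00000113013) and HSPB1 (ENSG00000106211). All 10 passed the filter on low counts in every comparison, so none is missing from any count below. Cells labelled WT were treated for 1 h with 5 µM i14G1-12, which the series title calls an inhibitor of eIF1-eIF4G1, or with DMSO, the solvent. Small ribosomal subunit complexes were crosslinked, trimmed with RNase and immunoprecipitated through 1 of 4 initiation factors, and the mRNA footprints inside them were sequenced. The eIF4G1 and the HA-tagged eIF1 immunoprecipitates had 3 libraries each for i14G1-12 and for DMSO, and the eIF3 and the HA-tagged eIF2a immunoprecipitates had 2 each. How the tagged proteins were expressed, whether a line was a single clone and whether replicates came from separate cultures are not given in the sources used here, so the spread behind each p-value is that between libraries and could be technical alone. No total RNA library was analysed here, so a change in the amount of an mRNA and a change in the complexes each mRNA carries cannot be told apart.

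Chaperones bind unfolded stretches of other proteins and keep them from clumping while they fold. HSPA8 (HSC70) is the HSP70 of the unstressed cytosol, which receives many chains as they leave the ribosome, and it works in a cycle with J-domain proteins that start ATP hydrolysis and exchange factors that release ADP. HSP90 receives part of the HSP70 clientele, HSPD1 and HSPE1 form the folding chamber of mitochondria, and the heat shock factor HSF1 drives many of these genes through heat shock elements, which are inverted repeats of GAA. In initiation, eIF4G1 is the scaffold that joins the cap-bound factors to the small subunit, eIF1 guards start codon choice, eIF2 brings the initiator tRNA and eIF3 holds the complex together.

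Heat shock elements were searched in the 250 bases before each annotated start, because HSF1 is known to act through them. RefSeq promoters (GRCh38.p14) were found for all 10 genes. The 2-unit core was written as GAANNTTC or TTCNNGAA, where N is any base. The 3-unit element was GAANNTTC followed by NNGAA, or TTCNNGAA followed by NNTTC, so every 3-unit match also holds 2-unit matches. Both strands were searched. The 3-unit element was present in 4 of the 10 genes (HSPA8, HSP90AA1, HSP90AB1 and HSPD1), against 0.557% of 27305 genes with a promoter. The 2-unit core was present in 6 of the 10, with DNAJB1 and HSPB1 added, against 13.96% of all genes. CCAAT was present in 3 of the 10 against 37% of genes, and TATAAA in 0 of the 10 against 13.05%. The promoters shown are those of HSPA8 and DNAJB1, the members whose footprints passed a test of treatment below, and of both cytosolic HSP90 genes, which carry the element and passed none. Capitals mark the heat shock element matches, and each sequence ends at the base before the annotated start.
HSPA8, chr11:123062137-123062386, minus strand: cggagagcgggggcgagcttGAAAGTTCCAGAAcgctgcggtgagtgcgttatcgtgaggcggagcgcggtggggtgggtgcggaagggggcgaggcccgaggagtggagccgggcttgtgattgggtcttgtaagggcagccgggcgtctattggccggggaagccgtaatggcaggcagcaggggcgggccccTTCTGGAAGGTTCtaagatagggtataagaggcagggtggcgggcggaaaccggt
DNAJB1 (second of 3 starts), chr19:14518398-14518647, minus strand: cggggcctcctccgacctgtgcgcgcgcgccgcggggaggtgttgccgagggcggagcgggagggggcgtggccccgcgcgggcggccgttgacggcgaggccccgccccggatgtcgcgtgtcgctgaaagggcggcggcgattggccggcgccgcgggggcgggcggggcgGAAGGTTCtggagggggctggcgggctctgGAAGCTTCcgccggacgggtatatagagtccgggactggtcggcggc
HSP90AA1 (second of 2 starts), chr14:102087045-102087294, minus strand: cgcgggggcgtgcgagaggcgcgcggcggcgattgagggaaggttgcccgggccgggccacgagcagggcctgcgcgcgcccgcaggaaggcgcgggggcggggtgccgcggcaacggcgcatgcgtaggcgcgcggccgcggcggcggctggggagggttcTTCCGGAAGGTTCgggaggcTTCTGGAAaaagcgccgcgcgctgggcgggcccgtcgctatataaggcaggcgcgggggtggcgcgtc
HSP90AB1 (last of 3 starts), chr6:44247693-44247942, plus strand: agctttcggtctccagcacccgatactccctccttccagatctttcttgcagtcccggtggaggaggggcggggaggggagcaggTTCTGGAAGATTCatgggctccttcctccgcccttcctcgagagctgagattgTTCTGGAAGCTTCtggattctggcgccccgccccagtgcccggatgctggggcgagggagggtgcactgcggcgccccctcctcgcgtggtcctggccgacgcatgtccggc
In HSPA8 the 3-unit matches began at -230 and -55 from the start, and in HSP90AB1 at -165 and -112. HSP90AA1 had its 3-unit match at -88, with a separate 2-unit core at -68. DNAJB1 had 2-unit cores at -77 and -47, and HSPB1 had a single core at -182. HSPD1 had overlapping 3-unit matches at -245 and -240 of its second start, while HSPH1, BAG3, HSPE1 and HSPA9 had no match in this window. The windows with matches of HSPA8, DNAJB1, HSP90AA1, HSP90AB1 and HSPD1 lie within the RefSeq span of the gene, before an annotated start inside it. The window of HSPB1 lies before its gene. These matches describe letters and were not tested as binding sites.

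**Figure D1:**
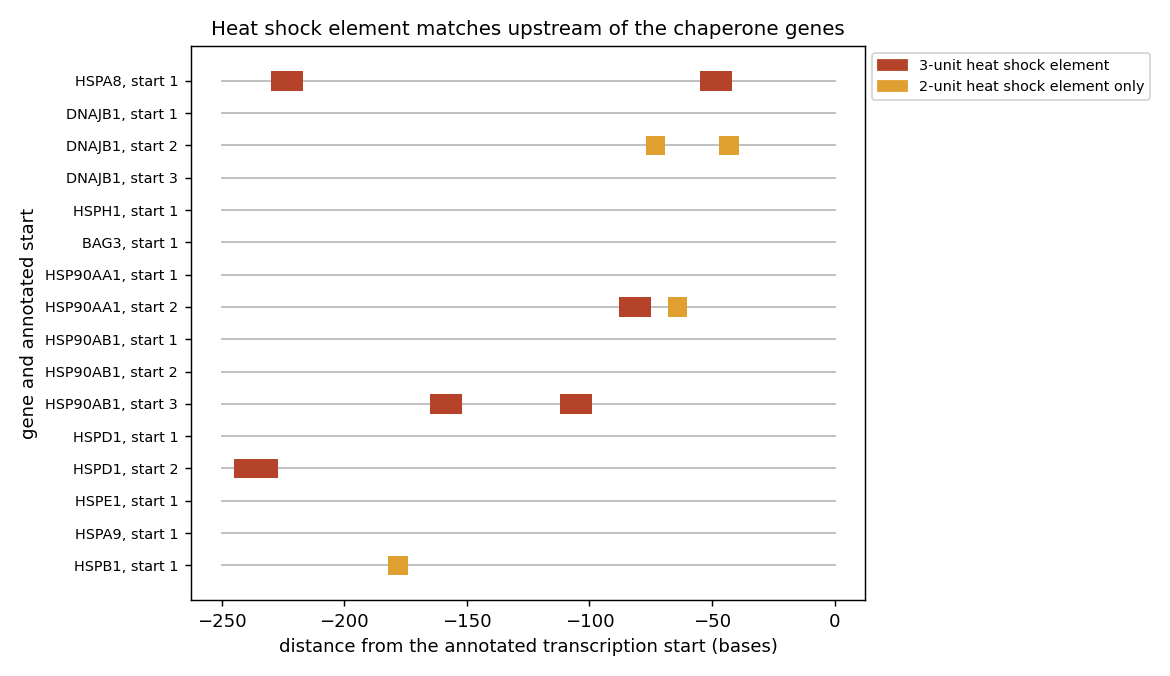
Heat shock element matches (3-unit in red, 2-unit core alone in yellow) in the 250 bases before each of the 16 annotated starts of the 10 genes, by distance from the start in bases. Matches lie before an annotated start of 6 genes, and those of HSPA8 at -230 and -55 are both of the 3-unit form.

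The libraries differed greatly in depth, from 10033 to 1161512 counts, and the 10 genes together held 0.471% to 1.00% of a library's counts. The shallowest library, the second DMSO library of eIF2a, had 118 genes with 10 or more counts, and a count of 0 in it, taken as up to 3 counts, allows up to 299 CPM on total counts and 158.7 CPM after TMM scaling (CPM is the count scaled to a common library size, and such limits cover counting error only). In that library DNAJB1 and BAG3 had 0 counts and HSPA8 had 14. The second DMSO library of eIF3 held 59179 counts, of which 1 was DNAJB1. Library a of eIF1 with i14G1-12 had the lowest TMM scaling factor, 0.601, which raises its printed values above those on total counts alone. The second DMSO library of eIF2a had the highest factor, 1.915, which lowers its printed values. Levels are CPM after TMM scaling over all 20 libraries unless stated, and a difference is log2 of i14G1-12 over DMSO, fitted on the libraries of that immunoprecipitation, with its standard error (SE) and 95% interval. A member is said to have passed where the adjusted p of edgeR's quasi-likelihood test, over all genes tested, was below 0.05.

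HSPA8 was the member with the clearest change: its footprints rose with i14G1-12 in the eIF1 and eIF4G1 immunoprecipitates and in the mean of the 4 treatment effects. DNAJB1, a J-domain partner that delivers substrates to HSP70, rose in that mean. Of the 10 genes, 0 passed as lower with eIF1, with eIF4G1 or in the mean, where 0.132%, 0% and 0.0212% of genes did, and the HSP90 genes and the mitochondrial chaperones passed none.

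HSPA8 lies at chr11:123057489-123062462 (GRCh38.p14) and overlaps the snoRNA genes SNORD14C, SNORD14D and SNORD14E in RefSeq. With eIF1, its level was 4134, 2184 and 2066 CPM in the i14G1-12 libraries, against 1275, 922 and 1369 CPM in the DMSO libraries. All 3 treated libraries lay above all 3 DMSO libraries, as in 8.86% of genes, and library a, at 4134 CPM, stood far above the rest. On total counts without scaling the same libraries gave 2445, 1838 and 1692 CPM with i14G1-12 and 949, 835 and 1184 CPM with DMSO, again without overlap. The means were 2795 ± 1162 CPM with i14G1-12 and 1189 ± 236 CPM with DMSO (SD, n = 3 each), and the log2 difference was 1.20 (SE 0.25, interval 0.68 to 1.72, edgeR adjusted p = 0.0317). HSPA8 was 1 of 10 members to pass there as higher, where 0.324% of 8338 genes did. The call was lost without i14G1-12 library c (adjusted p = 0.0521), DMSO library b (0.191) or DMSO library c (0.196), and in the fit of all 20 libraries (0.363), while the difference over the left-out libraries stayed between 0.84 and 1.37.

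With eIF4G1, HSPA8 stood at 1061, 769 and 687 CPM in the i14G1-12 libraries, against 296, 265 and 179 CPM in the DMSO libraries. The lowest treated library was thus above the highest DMSO library, as in 7.22% of 7203 genes. The means were 839 ± 197 CPM with i14G1-12 and 247 ± 60.4 CPM with DMSO (SD, n = 3 each), with a log2 difference of 1.75 (SE 0.30, interval 1.12 to 2.38, edgeR adjusted p = 0.00549). HSPA8 was the 1 member of 10 to pass as higher, where 0.347% of genes did. Leaving out any of the 3 DMSO libraries moved the adjusted p past the threshold (0.0716, 0.0530 and 0.162 without libraries 1, 2 and 3), with log2 differences from 1.54 to 1.90 over all left-out libraries. Among 9426 genes ranked by mean CPM, HSPA8 held rank 155 with i14G1-12 and rank 667 with DMSO.

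With eIF2a, HSPA8 had 1464 and 1252 CPM with i14G1-12, against 1540 and 741 CPM with DMSO. The last value, from 14 counts, was 1395 CPM on total counts. These groups overlapped, the log2 difference was 0.04 (interval -0.72 to 0.80) and the adjusted p was 1. With eIF3, HSPA8 had 1186 and 596 CPM with i14G1-12, against 389 and 250.5 CPM with DMSO. Both treated libraries were above both DMSO libraries, as in 13.8% of genes, but the difference of 1.41 (SE 0.65, interval 0.04 to 2.78) did not pass (edgeR adjusted p = 1). Leaving out 1 eIF3 library moved it to between 0.83, without the first i14G1-12 library, and 1.84, without the second. The members passing were 0 of 10 with eIF2a and with eIF3, against 0% of 4719 genes and 0.0159% of 6300 genes, and DESeq2 also gave 0 in each. At an unadjusted p below 0.05 there were 1 member with eIF2a and 2 with eIF3, against 1.84% and 1.75% of genes. HSPA8 was the only member with no overlap, treated above DMSO, in eIF1, eIF4G1 and eIF3 together, a pattern that 0.573% of 9426 genes showed. This combination was not among the planned comparisons and leaves out eIF2a, where HSPA8 overlapped. Its share is therefore no measure of how rare the HSPA8 result is.

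Averaged over the 4 immunoprecipitations in 1 fit, the HSPA8 difference was 1.14 (SE 0.20, interval 0.73 to 1.54, edgeR adjusted p = 0.000643), and 2 of the 10 members passed as higher in that mean, where 0.52% of genes did. The mean uses the same libraries as the separate comparisons and is no independent test of them. The HSPA8 call held without each of the 20 libraries in turn, with differences of 0.99 to 1.33 and adjusted p-values up to 0.00593. Its effect was 0.51 larger on the log2 scale with eIF4G1 than with eIF1, with an interval of -0.47 to 1.495 (edgeR adjusted p = 1). The test of whether the HSPA8 effects differed across all 4 factors did not pass (edgeR unadjusted p = 0.0513, adjusted p = 1). In edgeR's tests of these questions 0 of the 10 members passed, against 0.0318% and 0.0212% of genes. At an unadjusted p below 0.05 there were 1 member, HSPB1, and 0 members, against 3.13% and 1.8% of genes.

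A count ratio within a library needs no scaling between libraries. For each count of HSPA9, the mitochondrial HSP70, there were 10.3, 5.16 and 6.98 counts of HSPA8 in the eIF1 libraries with i14G1-12, against 2.87, 2.07 and 3.26 with DMSO. In the eIF4G1 libraries the ratio was 4.40, 1.93 and 1.75 with i14G1-12, against 0.506, 0.586 and 0.5 with DMSO. With both factors every treated library lay above every DMSO library. With eIF2a the ratio was 2.31 and 1.56 with i14G1-12 against 1.96 and 4.67 with DMSO, the last from 14 counts of HSPA8, and with eIF3 it was 3.48 and 1.42 with i14G1-12 against 0.800 and 0.692 with DMSO. The eIF2a groups overlapped and the eIF3 groups did not. HSPA9 itself had log2 differences of -0.25 with eIF1 and -0.43 with eIF4G1, which did not pass, and a lower HSPA9 raises the ratio. For each count of HSP90AB1 there were 2.01, 1.30 and 1.37 counts of HSPA8 with eIF1 and i14G1-12, against 0.672, 0.504 and 0.619 with DMSO. With eIF4G1 this ratio was 0.672, 0.505 and 0.547 with i14G1-12, against 0.141, 0.235 and 0.152 with DMSO. Its eIF2a groups overlapped and its eIF3 groups did not. HSP90AB1 itself had log2 differences of -0.21 with eIF1 and -0.02 with eIF4G1, which did not pass, and a lower HSP90AB1 raises this ratio. The ratios to HSPA9 and HSP90AB1 were not among the planned comparisons and were not tested. How often ratios of other genes separate in this way was not computed.

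DNAJB1 (chr19:14514769-14560391, GRCh38.p14) was the scarcest member per kilobase with eIF1, and it overlaps TECR in RefSeq, so its counts are uncertain where reads could be split. With eIF4G1 it had 134.9, 93.1 and 171.2 CPM in i14G1-12 libraries, against 31.8, 70.1 and 43.8 CPM in DMSO libraries. These groups did not overlap, as in 7.22% of genes, and the log2 difference was 1.52 (SE 0.39, interval 0.70 to 2.34), which did not pass (edgeR adjusted p = 0.125). With eIF1 the values were 29.98, 91.0 and 72.7 CPM with i14G1-12, against 35.9, 42.0 and 63.1 CPM with DMSO. Library a with i14G1-12, the lowest of these, lay below every DMSO library, and the difference of 0.48 had an interval of -0.30 to 1.27 (edgeR adjusted p = 0.642). With eIF3, DNAJB1 had 159.5 and 165.7 CPM with i14G1-12, against 51.0 and 13.9 CPM with DMSO, the last of these from 1 count. The eIF3 difference was 1.98 (interval 0.55 to 3.41, edgeR adjusted p = 1). With eIF2a it had 140.7 and 93.2 CPM with i14G1-12, against 84.6 and 0 CPM with DMSO, where 0 counts allow 158.7 CPM on this scale, more than either treated library had. Treated libraries above DMSO libraries, as here, were found in 21.8% of genes with eIF2a. The mean of the 4 effects was 1.15 (SE 0.25, interval 0.64 to 1.65, edgeR adjusted p = 0.0113). This call was lost without the first i14G1-12 library of eIF2a (adjusted p = 0.0810), on total counts without scaling (0.0748), without eIF2a and eIF3 (0.0557), and without the shallow DMSO libraries of eIF2a and eIF3 with the treated eIF3 library numbered 2 (0.0511). Without the first DMSO library of eIF2a, which leaves the library of 0 counts alone in its group, the mean was 3.16.

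BAG3 (chr10:119651380-119677819, GRCh38.p14), a BAG-domain exchange factor for HSP70 that also serves selective autophagy, passed no treatment comparison. With eIF4G1 it had 159.7, 61.2 and 99.0 CPM with i14G1-12, against 55.9, 59.8 and 39.8 CPM with DMSO. The lowest treated library was barely above the highest DMSO library, and the difference of 1.00 had an edgeR adjusted p of 0.457. On total counts these groups overlapped, with 57.3 CPM in the second treated library against 65.8 CPM in the second DMSO library. With eIF1 it had 239.8, 126.6 and 138.2 CPM with i14G1-12, against 136.5, 142.4 and 97.5 CPM with DMSO, which overlap. With eIF2a the values were 95.9 and 97.3 CPM with i14G1-12 against 44.1 and 0 CPM with DMSO, the 0 again allowing 158.7 CPM, and with eIF3 they were 101.5 and 47.3 CPM with i14G1-12 against 60.6 and 27.8 CPM with DMSO. The mean of the 4 BAG3 effects was 0.79 (interval 0.29 to 1.29, edgeR adjusted p = 0.146), and it was 2.59 without the first DMSO library of eIF2a.

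HSPH1 (chr13:31134973-31162388, GRCh38.p14), the HSP110 exchange factor of HSPA8, had the opposite sign with eIF1. Its level there was 218.9, 239.4 and 174.6 CPM with i14G1-12, against 389, 347 and 292.5 CPM with DMSO. Every treated library was below every DMSO library, as in 9.15% of genes, yet the difference of -0.72 (SE 0.22, interval -1.18 to -0.26) did not pass (edgeR adjusted p = 0.140). With eIF3 it had 159.5 and 126.2 CPM with i14G1-12 against 200.9 and 167.0 CPM with DMSO, also without overlap, as in 11.9% of genes. The eIF4G1 and eIF2a groups overlapped, and the mean of the 4 HSPH1 effects was -0.29 (interval -0.70 to 0.12, edgeR adjusted p = 0.700).

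**Figure D2:**
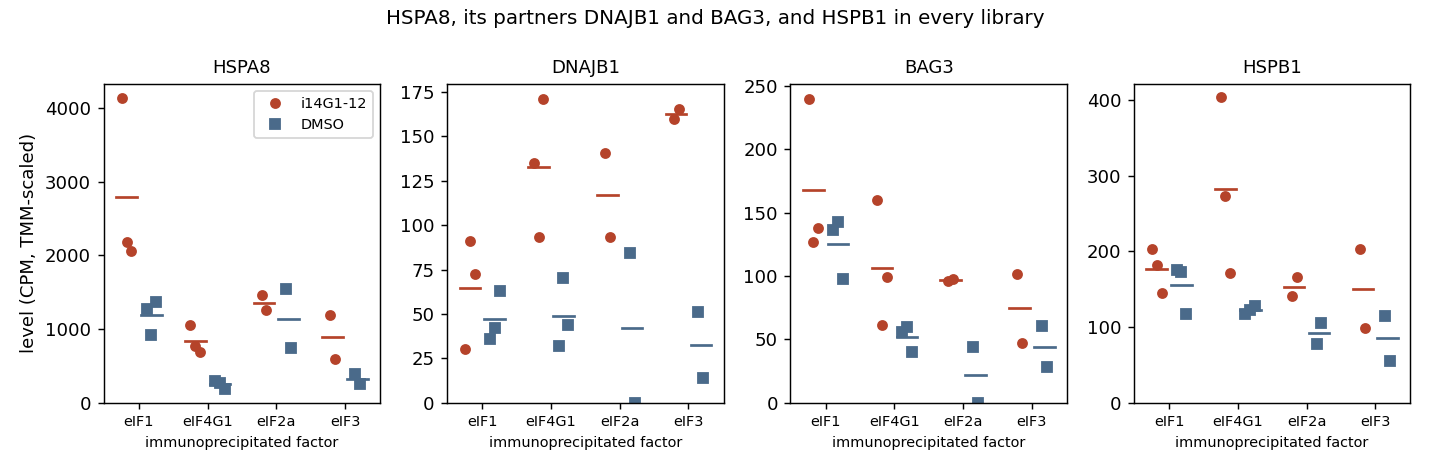
Level of HSPA8, DNAJB1, BAG3 and HSPB1 (CPM, TMM-scaled, y axes from 0 and separate for each gene) in every library by immunoprecipitated factor, with i14G1-12 as red circles and DMSO as blue squares, and lines at group means. The eIF4G1 groups do not overlap for any of these 4 genes, as for 7.22% of all genes, but those of BAG3 overlap on total counts. HSPA8 of eIF1 library a stands highest at 4134 CPM.

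HSPB1 (chr7:76302673-76304292, GRCh38.p14), the small heat shock protein HSP27 that holds unfolded proteins without using ATP, had its clearest separation with eIF4G1. Its level was 404.6, 273.9 and 171.2 CPM with i14G1-12, against 117.6, 122.1 and 127.5 CPM with DMSO. The treated libraries were spread widely and the DMSO libraries closely, without overlap, as in 7.22% of genes. The difference of 1.19 (SE 0.34, interval 0.50 to 1.89) did not pass (edgeR adjusted p = 0.193). The mean of the 4 HSPB1 effects was 0.73 (interval 0.29 to 1.17, edgeR adjusted p = 0.119). HSPB1, HSPA8, DNAJB1 and BAG3 had a higher mean CPM with i14G1-12 in all 4 immunoprecipitations, which 16.2% of genes also had. For HSPA8 with eIF2a the direction was the opposite on total counts. There it had 1503 and 1264 CPM with i14G1-12, against 1553 and 1395 CPM with DMSO. The eIF2a DMSO means of DNAJB1 and BAG3 include a count of 0 from the shallowest library.

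The cytosolic HSP90 genes passed no treatment comparison. HSP90AA1 (chr14:102080742-102139749, GRCh38.p14), the stress-inducible HSP90 alpha, which overlaps WDR20 in RefSeq, averaged 1413 ± 181 CPM with i14G1-12 and 1411 ± 184 CPM with DMSO in eIF1 (SD, n = 3 each). HSP90AB1 (chr6:44246194-44253883, GRCh38.p14), the constitutive HSP90 beta, averaged 1747 ± 280 CPM with i14G1-12 and 1980 ± 204 CPM with DMSO there. The mean of the 4 effects was 0.05 for HSP90AA1, with an interval of -0.32 to 0.43. It was 0.09 for HSP90AB1, with an interval of -0.30 to 0.49. The mean HSPA8 effect of 1.14 lies outside both intervals. Without the first DMSO library of eIF2a, which leaves the shallowest library alone in its group, the HSP90AB1 mean was 0.50 and HSP90AB1 passed with eIF2a (log2 1.68, edgeR adjusted p = 0.0159). Without the shallowest library itself the HSP90AB1 mean was -0.05. With eIF4G1, HSP90AA1 averaged 1418 ± 154 CPM with i14G1-12 and 1489 ± 439 CPM with DMSO (SD, n = 3 each). HSP90AB1 averaged 1452 ± 172 CPM with i14G1-12 and 1472 ± 548 CPM with DMSO there. In eIF2a the treated libraries had 2161 and 2002 CPM of HSP90AA1, against 2044 and 1005 CPM with DMSO, the last from 19 counts and 1894 CPM on total counts.

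The mitochondrial chaperones also passed none. HSPD1 (chr2:197486584-197500274, GRCh38.p14), the HSP60 subunit of the folding chamber, averaged 993 ± 93.3 CPM with i14G1-12 and 1162 ± 176 CPM with DMSO in eIF1 (SD, n = 3 each). Its mean effect was -0.03, with an interval of -0.40 to 0.34. HSPA9 (chr5:138553756-138575401, GRCh38.p14), the HSP70 of the matrix, averaged 374 ± 68.3 CPM with i14G1-12 and 436 ± 14.1 CPM with DMSO there. Its mean effect was -0.14, with an interval of -0.52 to 0.25. In RefSeq HSPA9 overlaps SNORD63, SNORD63B and LOC105379193, and HSPD1 overlaps SNORA105B. HSPE1 (chr2:197500379-197503449, GRCh38.p14), the HSP10 lid of the chamber, lies next to HSPD1 and overlaps the readthrough gene HSPE1-MOB4 in RefSeq, so its counts are uncertain where reads could be split. With eIF1, HSPE1 had 1250.2, 805 and 732 CPM with i14G1-12, against 651, 672 and 648 CPM with DMSO. Every treated library was above every DMSO library, as in 8.86% of genes, and the difference of 0.46 had an interval of 0.01 to 0.91 (edgeR adjusted p = 0.382). On total counts the groups overlapped, with 599.6 CPM in treated library c against 608.9 CPM in DMSO library b. The mean of the 4 HSPE1 effects was 0.37 (interval -0.02 to 0.77, edgeR adjusted p = 0.531).

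**Figure D3:**
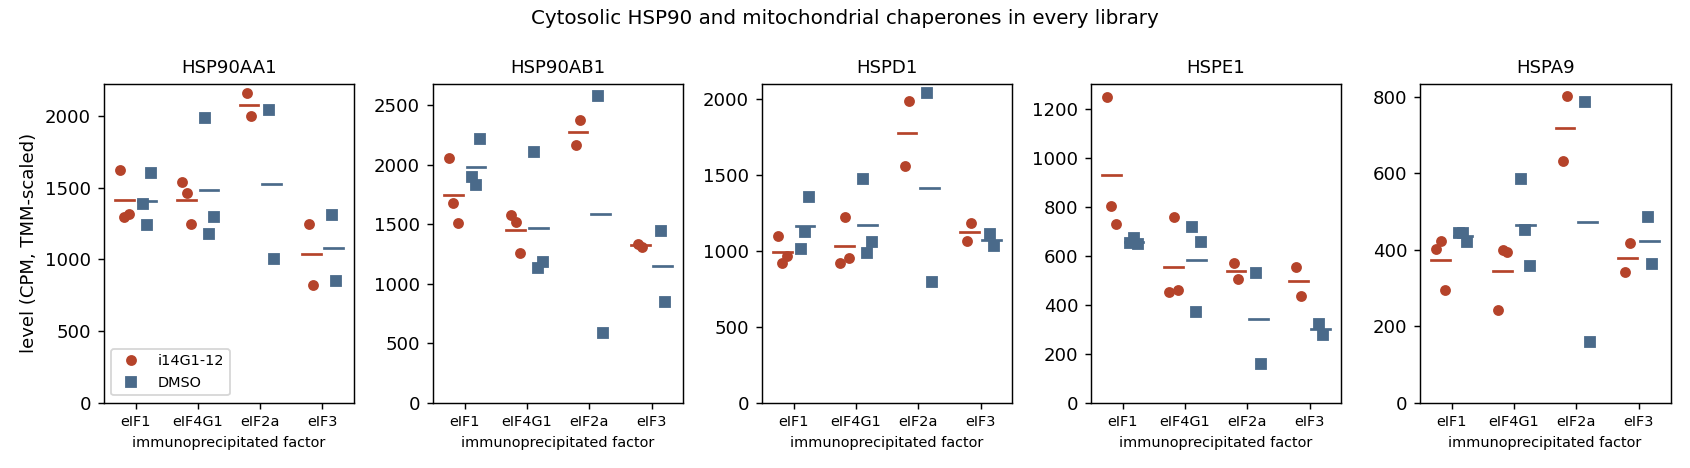
Level of the HSP90 and mitochondrial chaperone genes (CPM, TMM-scaled, y axes from 0 and separate for each gene) in every library by immunoprecipitated factor, with i14G1-12 as red circles and DMSO as blue squares, and lines at group means. The groups overlap for every gene and factor shown except HSPE1 with eIF1 and with eIF3, where the treated libraries lie higher. On total counts the eIF1 groups of HSPE1 overlap too.

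As a list, the 10 genes had a median log2 difference of 0.07 with eIF1, where the median of all genes was 0.00, and 5 of the 10 were above 0, as were 50.6% of all genes. With eIF4G1 the members' median was -0.04 and that of all genes -0.01, with 4 members and 49.6% of genes above 0. With eIF2a it was 0.23 against 0.06, with 10 members and 56.6% of genes above 0. The eIF2a count was 8 of 10 on total counts and 6 of 10 without the second DMSO library, where HSPA8, HSP90AB1, HSPD1 and HSPA9 were below 0. With eIF3 the median was 0.34 against 0.02, with 7 members and 51.5% of genes above 0. With eIF1 and eIF4G1 the HSPA8 differences of 1.20 and 1.75 were thus far from the median of the list.

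**Figure D4:**
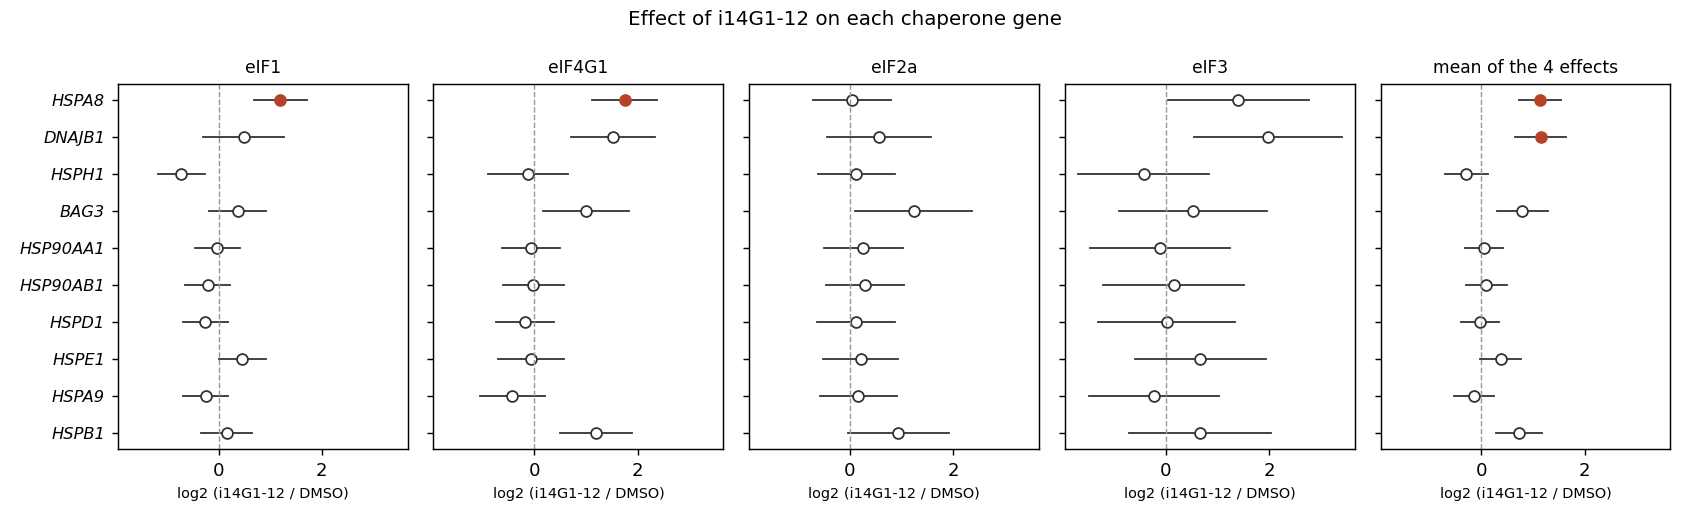
Log2 difference of i14G1-12 over DMSO for each gene (points) with its 95% interval (bars), in each immunoprecipitation and for the mean of the 4 effects, filled in red where the adjusted p was below 0.05. HSPA8 is filled with eIF1 (1.20), eIF4G1 (1.75) and in the mean (1.14), DNAJB1 in the mean (1.15), and all other points are open.

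The DMSO libraries of each factor were set against the mean of the other factors, which asks how the footprints of these mRNAs were spread over the complexes without the compound. Factor, antibody, tag and batch cannot be told apart in it, and the contrasts share DMSO libraries. HSPA8 was higher with eIF1 than the mean of the others by 1.35 on the log2 scale (SE 0.29, interval 0.77 to 1.92, edgeR adjusted p = 0.00166). BAG3 was higher by 1.38 (SE 0.34, interval 0.71 to 2.06, edgeR adjusted p = 0.00697). These were 2 of 10 members, where 3.76% of genes passed as higher. The HSPA8 call held without each library in turn. That of BAG3 was lost without eIF1 DMSO library a (adjusted p = 0.0771), without the first DMSO library of eIF2a (0.0589, with a difference of 3.79) and on total counts (0.0915).

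HSPA8 was lower with eIF4G1 than with the others by log2 -1.65 (SE 0.33, interval -2.31 to -0.99, edgeR adjusted p = 0.00676), 1 of 10 members where 0.0955% of genes passed as lower. The call was lost without any 1 of the 3 eIF4G1 DMSO libraries (adjusted p = 0.0568, 0.0591 and 0.464) and without the first DMSO library of eIF2a (0.185). With eIF2a, HSPA8 differed from the others by 1.40 (interval 0.73 to 2.08, edgeR adjusted p = 0.118), and with eIF3 by -1.10 (interval -1.87 to -0.33, edgeR adjusted p = 0.582). In these contrasts 0 members passed, where 0.053% and 0.0955% of genes did, and 1 and 2 members had an unadjusted p below 0.05, against 3.7% and 5.79% of genes. HSPA8 had its lowest DMSO mean with eIF4G1, 247 CPM, and the means with eIF3, eIF2a and eIF1 were 320 ± 98.0, 1141 ± 565 and 1189 ± 236 CPM (SD, n = 2, 2 and 3), that of eIF2a with the library scaled by 1.915. Those of eIF4G1 and eIF3, and those of eIF2a and eIF1, lay within their spread of each other. On total counts the eIF2a DMSO libraries had 1553 and 1395 CPM of HSPA8, above the 949, 835 and 1184 CPM of eIF1. The HSP90 genes, HSPD1 and HSPA9 differed by between -0.56 and 0.46 on the log2 scale in the 4 contrasts, and none of these differences passed. HSPE1 differed by 0.64 with eIF1, 0.41 with eIF4G1, -0.21 with eIF2a and -0.84 with eIF3, and also passed in none. Members above 0 numbered 7, 3, 7 and 0 of 10 with eIF1, eIF4G1, eIF2a and eIF3. Of all genes, 53.4%, 56.2%, 41.0% and 52.8% were above 0.

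**Figure D5:**
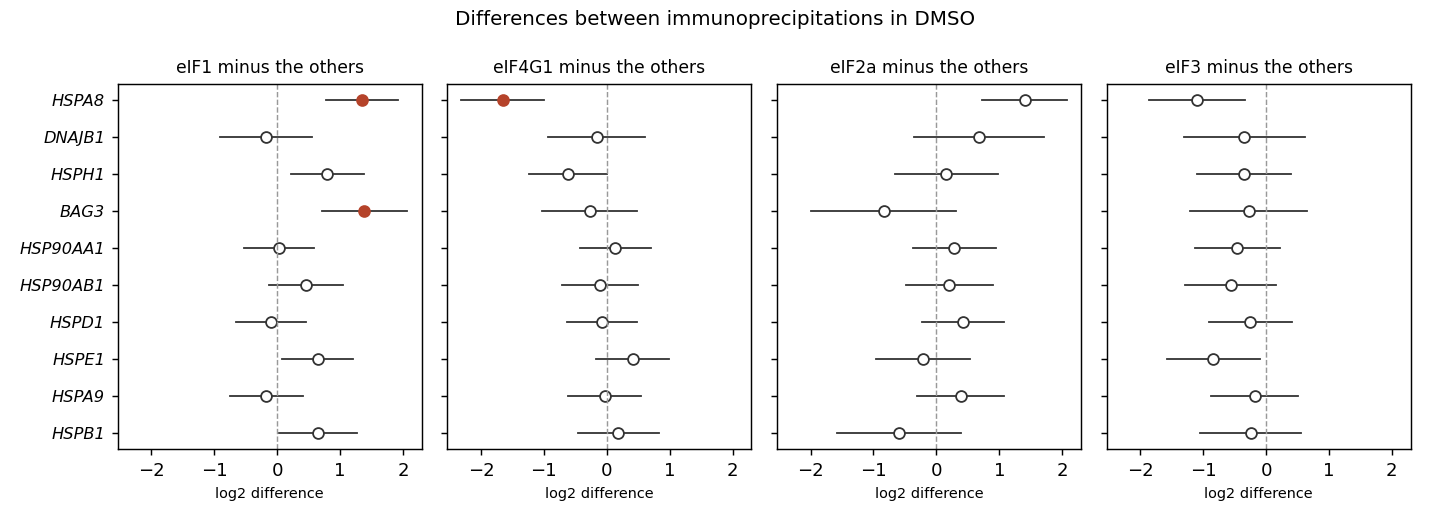
Log2 difference between the DMSO libraries of each factor and the mean of the other factors (points) with its 95% interval (bars) for each gene, filled in red where the adjusted p was below 0.05. HSPA8 lies at 1.35 with eIF1 and at -1.65 with eIF4G1, and BAG3 at 1.38 with eIF1.

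Per kilobase of counted sequence, HSPE1 had the highest value of the members in both eIF1 groups, at 1668 ± 503 RPKM, which is CPM per kilobase, with i14G1-12 and 1180 ± 23.7 RPKM with DMSO. HSPA8 came next with i14G1-12, at 1234 ± 513 RPKM, against 525 ± 104 RPKM with DMSO, where HSP90AB1 at 775 ± 79.7 RPKM stood above it. With i14G1-12 HSP90AB1 had 684 ± 109.5 RPKM, and HSPE1 and HSPA8 lay within their spread of each other. The scarcest member was DNAJB1, at 28.8 ± 13.97 RPKM with i14G1-12 and 21.0 ± 6.37 RPKM with DMSO (SD, n = 3 in each group). With eIF4G1 and DMSO, HSPA8 at 109 ± 26.7 RPKM was close to HSPA9 at 106 ± 25.8 RPKM, whereas with i14G1-12 it had 371 ± 86.8 RPKM against 78.2 ± 20.3 RPKM for HSPA9. By CPM the order with eIF1 was different. With DMSO, HSPE1 had 657 CPM, below HSP90AB1 (1980), HSP90AA1 (1411), HSPA8 (1189) and HSPD1 (1162). HSPE1 has the shortest counted sequence of the members, 557 bases, and how footprints lay along each sequence was not examined.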

How the data were processed

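Footprints of initiation complexes were measured in 20 libraries of HEK 293T cells. Each immunoprecipitation has 1 table of unnormalized counts, as the authors deposited them. The submitters' processing notes name the build hg38 and the tools featureCounts, HISAT2, Bowtie, Trimmomatic and cutadapt, without versions. Per the file headers, each gene was counted on 1 sequence, and the sources used here do not say how reads that fit several genes were treated. Every pair of replicates differed beyond counting noise (a chi-square of 1.43 to 11.2 per degree of freedom) and all were kept as separate libraries.

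Counts were fitted with edgeR 4.0.16 in R 4.3.3 (quasi-likelihood test, filterByExpr with a minimum count of 10, TMM, Benjamini-Hochberg adjustment over all genes tested, threshold 0.05). Each treatment effect was fitted on its own immunoprecipitation, and mean effects, differences between effects and DMSO contrasts on all 20 libraries with 8 group means. CPM used TMM factors over all 20 libraries. The scripts were tested on simulated counts. Columns of eIF1 carry numbers that are not those of the labels, so its libraries are called a, b and c. Libraries of equal number elsewhere did not deviate together in every case (r = -0.147 to 0.0103 with eIF4G1, -0.00942 with eIF2a, 0.362 with eIF3) and were not treated as paired.

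The members and lists were chosen with earlier results of these data known. All 10 members are described by role, with values in every library for those past the threshold in a comparison; the values of other members in every library were added after they were seen. The reference table matched 0 of 19029 identifiers to a symbol, so a wider chaperone list and markers of other cell types were not run, and member names are those given with their identifiers. Promoter sequences and coordinates are from RefSeq, GRCh38.p14. Alternatives were DESeq2 size factors and the DESeq2 1.42.0 test, total counts, no filter, a minimum of 30 counts, 1 fit of 20 libraries, the replicate number as a block, fits without eIF2a and eIF3 or without the shallowest libraries, and each library left out in turn.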

Additional observations from a re-analysis of the deposited data

How the results depend on the processing

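Of 1982 values of single members under the alternatives, 1946 kept their side of the threshold, 18 lost a call and 18 gained one. Of the called values 0 changed sign, while the 1946 include 105 that passed neither time and changed sign. Of 160 group levels, 28 moved by more than the spread between replicates. The number of members passing with eIF1 (1 as reported) was 0 in the fit of all 20 libraries and 2 with the DESeq2 test, where HSPH1 joined (adjusted p = 0.0437). With eIF4G1 (1) it was 2 with no filter on low counts, where DNAJB1 joined (adjusted p = 0.0492), and 2 with the DESeq2 test, where HSPB1 joined (adjusted p = 0.0163). For the mean of the 4 effects (2) it was 1 on total counts, 1 without eIF2a and eIF3, and 1 without the DMSO 2 library of eIF2a and the eIF3 libraries numbered 2, a choice made after seeing the data. For eIF1 against the other DMSO groups (2) it was 1 on total counts. For eIF2a against the others (0) it was 1, HSPA8, on total counts, with a minimum of 30 counts, and without those shallow libraries. Leaving out 1 library at a time gave 0 to 1 members with eIF1, 0 to 2 with eIF4G1, 0 to 1 with eIF2a, 0 with eIF3, 1 to 3 for the mean of the 4 effects, and 0 for both tests of unequal effects. For the DMSO contrasts it gave 1 to 3 for eIF1, 0 to 1 for eIF4G1, 0 to 1 for eIF2a and 0 for eIF3. Where a group was left with 1 library, that library was assumed to vary like the others. The cause of these shifts was not tested. On total counts the median of all genes was -0.13 with eIF1, -0.16 with eIF4G1, and -0.33 for eIF1 against the other DMSO groups. The DESeq2 test was run without the filter on low counts. Its count of all genes passing differed from that of edgeR with the filter by more than 1.5 times. With eIF1 it was 174 by DESeq2 against 38 by edgeR, and with eIF4G1 91 against 25. With no filter, edgeR gave 129 with eIF1 and 68 with eIF4G1. The shallow DMSO libraries of eIF2a (10033 counts) and eIF3 (59179 counts) limit what their comparisons can show.

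With the replicate number of the labels as a block, 2 members passed with eIF3, HSPA8 (adjusted p = 0.0230) and DNAJB1 (0.0329), and 4 passed for the mean of the 4 effects, with BAG3 (0.0492) and HSPB1 (0.0465) added. Equal numbers were not shown to pair libraries. No paired analysis was possible for eIF1 because its columns carry no replicate number of the labels.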

Other observations

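The proportions within chaperone pairs were examined as count ratios inside each library, chosen after the values were seen and not tested. For each count of HSPD1 there were 1.14, 0.877 and 0.761 counts of HSPE1, its partner in the mitochondrial folding chamber, in eIF1 libraries with i14G1-12, against 0.646, 0.598 and 0.479 with DMSO. With eIF3 the ratio was 0.520 and 0.370 with i14G1-12, against 0.288 and 0.270 with DMSO. Neither pair of groups overlapped, while those of eIF4G1 and of eIF2a did. For each count of HSP90AA1 there were 1.27, 1.30 and 1.14 counts of HSP90AB1 in eIF1 libraries with i14G1-12, against 1.37, 1.48 and 1.38 with DMSO, again without overlap. The groups of this ratio overlapped with eIF4G1 (1.02, 1.04 and 1.01 with i14G1-12 against 1.06, 0.956 and 0.914 with DMSO), with eIF2a (1.00 and 1.19 against 1.26 and 0.579) and with eIF3 (1.07 and 1.59 against 1.10 and 1.00).

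The genes whose levels followed HSPA8 most closely over the 20 libraries, after the mean of each immunoprecipitation was subtracted from log2(CPM + 1), were ENSG00000114391 (Pearson r = 0.95) and ENSG00000197728 (r = 0.94), of 8048 genes with a mean of at least 20 CPM. Without the shallowest library, which was left out after seeing the data, ENSG00000288920 came first (r = 0.97 over 19 libraries), ENSG00000114391 second (r = 0.95), and ENSG00000197728 was not among the first 2. These libraries share the treatment and differ in depth, and the names of these identifiers are not given in the files. The nearest genes of DNAJB1 had r = 0.95 and 0.93 over 20 libraries, and the nearest over 19 had r = 0.87 and 0.83. For HSP90AA1 they were 0.92 and 0.91 over 20 libraries, and 0.89 and 0.85 over 19.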
